A study of Arabidopsis thaliana with 6 samples.

Results

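This account follows 53 Arabidopsis genes that build, move or organise microtubules: the alpha and beta tubulins (TUA and TUB), kinesin motors of the division apparatus and of non-dividing cells, the MAP65 bundling proteins, mitotic regulators and other microtubule-associated proteins (MAPs). The members were listed by locus out of the 33602 genes in the counts, with earlier results of these data known. Of the 53, 44 had a mean of at least 10 counts per library and are called measured, and 9 did not. mRNA was sequenced from leaves of WT (Ler), the Landsberg erecta accession, and of rse1-1, with 3 biological replicates of each. rse1-1 came from a screen of plants mutagenised with EMS in the Ler background. It carries a C-to-T change that creates a premature stop codon in RSE1, which encodes a glycosyltransferase-like protein, and the plants senesce early. Leaves 3 and 4 of both genotypes were taken at 16 days after sowing (DAS), before yellowing was visible, from plants grown untreated in soil at 22 °C under 16 h of light and 8 h of dark. rse1-1 is a single allele, and no second allele or complemented line is among these 6 libraries.

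Microtubules are hollow polymers of paired alpha and beta tubulin. In plant cells that do not divide they lie at the cell cortex, where they guide the placing of cellulose. In dividing cells they form a preprophase band, a spindle and then the phragmoplast, the plant structure in which kinesins, MAP65 proteins and vesicle fusion proteins such as the syntaxin KNOLLE assemble the new cell wall. Many genes of mitosis and cytokinesis are transcribed around the G2 to M transition through the mitosis-specific activator element, a promoter element with the core AACGG that is bound by MYB3R transcription factors. Divisions in a growing leaf end earliest at its tip and continue longest in the stomatal lineage.

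The libraries held between 9960144 and 15244500 counts on genes, and levels are given as CPM, counts per 1e6 counts on genes after TMM scaling. The limit set by a count of 0 is 3 counts, equal to 0.197 CPM in the deepest library and 0.301 CPM in the shallowest, for counting error only. RSE1 itself had 57.1, 54.4 and 57.5 CPM in WT and 18.9, 21.2 and 21.0 CPM in rse1-1 (log2 fold change -1.47, SE 0.0832, adjusted p = 5.33e-10, edgeR). Adjusted p-values are those of the quasi-likelihood test in edgeR, corrected by the Benjamini-Hochberg method for 16294 tested genes, and a gene is called where the value is under 0.05. Of the listed leaf mesophyll markers, 6 of 8 were measured, RCA at 2306 ± 55.6 CPM and PSAD2 at 1547 ± 61.8 CPM (SD, n = 3) in WT. RBCS1A was at 70.4 ± 7.49 CPM in WT (SD, n = 3). LHCB1.3, a defining antenna gene, had 0 counts in every library, and LHCB1.2 had at most 2. Low counts went with position in the genome: ribosomal protein genes under 10 counts numbered 10 of 78 (12.8%) in the first 5 Mb of a chromosome and 124 of 265 (46.8%) past it. Past the first 5 Mb a count may therefore come from a neighbouring gene, which the count table does not resolve, and the cause was not tested. The members TUA4, TUB6, ATK5, KCA1, MAP65-6, KNOLLE, TPX2 and SPR1 lie in the first 5 Mb, and the other 45 lie past it.

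The 250 bases before the annotated start of 4 members that fell are shown because they carry the promoter feature described at the end, and that of SPR1, which rose, because it does not. These windows were thus chosen on both the change and the feature, and do not represent the members. POK1, ATK1, MAP65-1 and TUB6 fell without the feature, and FRA1, with it, was not called. The windows were read from the RefSeq TAIR10.1 genome, not from the Ler genome rebuilt by the authors. Each runs 5′ to 3′ on the strand of its gene, and capitals mark AACGG or its reverse complement CCGTT. KNOLLE is shown from chr1:2711001-2711250 on the minus strand. PAKRP1L is shown from chr3:8518886-8519135 on the plus strand, MAP65-4 from chr3:22480981-22481230 on the minus strand, TUB7 from chr2:12646058-12646307 on the minus strand and SPR1 from chr2:1120537-1120786 on the plus strand.
KNOLLE: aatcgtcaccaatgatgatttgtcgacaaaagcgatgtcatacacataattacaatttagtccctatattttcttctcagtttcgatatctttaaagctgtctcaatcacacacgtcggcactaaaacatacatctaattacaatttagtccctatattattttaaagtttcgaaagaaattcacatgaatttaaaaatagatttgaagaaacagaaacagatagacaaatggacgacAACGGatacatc
PAKRP1L: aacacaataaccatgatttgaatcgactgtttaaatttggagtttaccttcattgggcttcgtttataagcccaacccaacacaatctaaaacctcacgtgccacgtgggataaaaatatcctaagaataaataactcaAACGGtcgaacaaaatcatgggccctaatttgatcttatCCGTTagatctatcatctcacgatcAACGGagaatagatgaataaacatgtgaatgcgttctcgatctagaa
MAP65-4: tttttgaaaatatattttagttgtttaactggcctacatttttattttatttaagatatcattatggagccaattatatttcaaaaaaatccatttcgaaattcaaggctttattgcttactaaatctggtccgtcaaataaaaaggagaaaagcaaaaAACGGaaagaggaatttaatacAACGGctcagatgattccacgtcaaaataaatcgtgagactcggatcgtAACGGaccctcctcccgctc
TUB7: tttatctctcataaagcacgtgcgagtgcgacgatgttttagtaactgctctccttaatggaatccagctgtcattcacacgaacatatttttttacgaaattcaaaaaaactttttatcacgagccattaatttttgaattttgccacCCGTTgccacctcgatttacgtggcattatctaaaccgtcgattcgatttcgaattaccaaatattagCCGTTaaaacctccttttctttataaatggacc
SPR1: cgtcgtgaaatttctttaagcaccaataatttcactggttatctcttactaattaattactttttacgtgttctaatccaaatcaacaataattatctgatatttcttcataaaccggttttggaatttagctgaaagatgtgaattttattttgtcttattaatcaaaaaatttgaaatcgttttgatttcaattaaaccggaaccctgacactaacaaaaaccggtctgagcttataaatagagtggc
The letters occur 1 time in the window of KNOLLE, 2 times in that of TUB7, and 3 times in those of PAKRP1L and MAP65-4, and SPR1 has none.

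Microtubule genes were mostly lower in rse1-1 leaves. Of the 44 measured members, 36 were called lower, 2 were called higher (TUB1 and SPR1) and 6 were not called. Among all genes tested, 77.0% were called, 38.3% lower and 38.8% higher, so a call alone was common, while the share of members called lower was 81.8%. The median log2 fold change of the measured members was -1.27, with a range from -2.21 to 0.31, and that of all genes tested was -0.0086. A fall of at least 1 on the log2 scale was called for 26 members, against 14.4% of all genes tested. In 40 members the libraries of the genotypes did not overlap, and in 35 of them rse1-1 was the lower and called so, where the shares of all genes tested were 79.5% not overlapping in either direction and 39.5% not overlapping with rse1-1 lower. The 8 members in the first 5 Mb had the same median as the 36 measured members past it, -1.27, with 7 lower and 1 higher. In whole leaves, fewer cells of a type and less RNA per cell cannot be told apart.

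**Figure D1:**
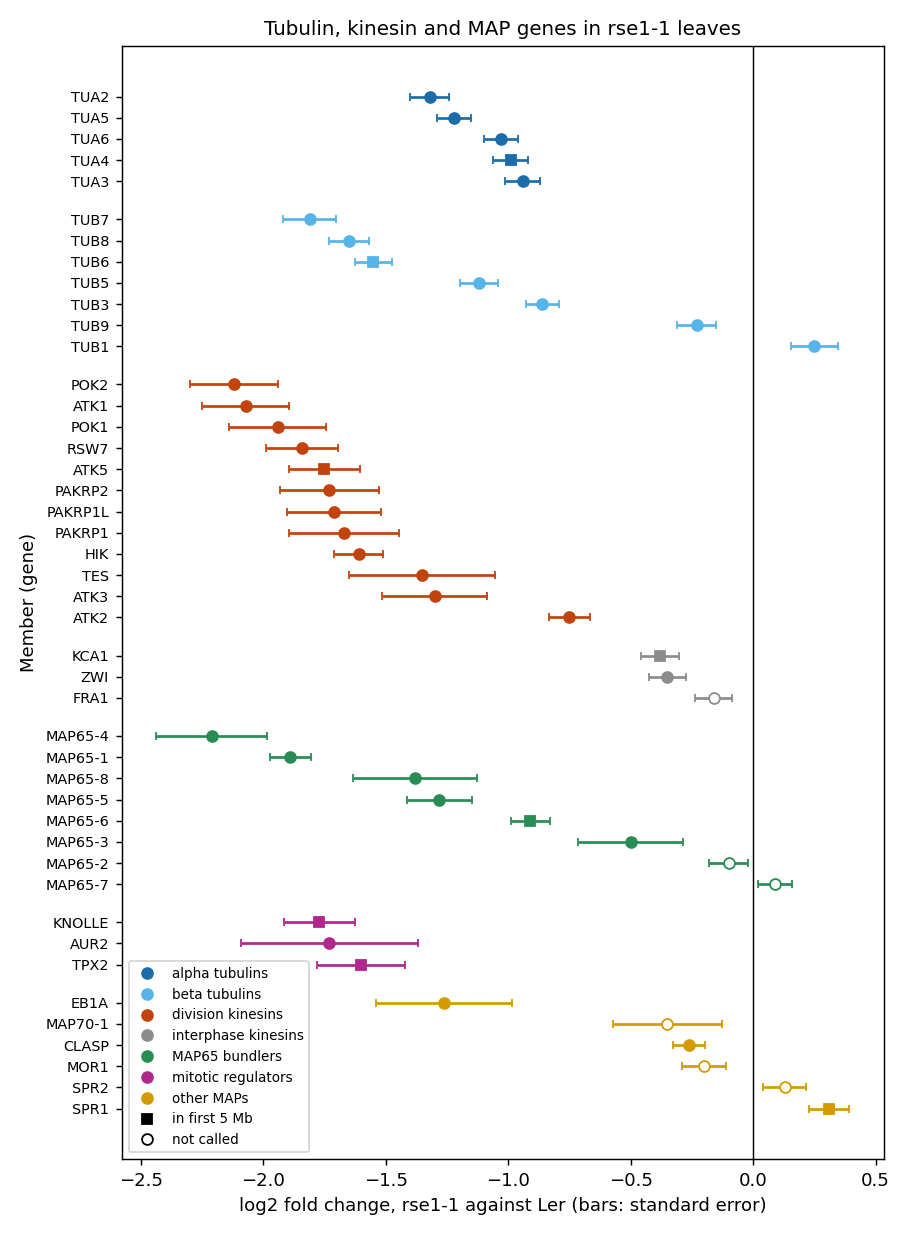
log2 fold change of each of the 44 measured members in rse1-1 against WT (Ler), with its standard error, grouped and coloured by role. Squares mark genes of the first 5 Mb and open symbols genes that were not called. All points of the division kinesins and mitotic regulators lie left of 0, from -2.12 to -0.75, while the interphase kinesins and other MAPs lie between -1.26 and 0.31.

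The tubulins, the building blocks of the polymer, were lower in both families. All 5 measured alpha tubulins and 6 of 7 measured beta tubulins were called lower. Together this was 91.7% of the measured tubulins, against 38.3% of all genes tested. Summed over the family, alpha tubulin had 2042, 2097 and 2081 CPM in WT and 970, 1021 and 1061 CPM in rse1-1. Summed beta tubulin had 1171, 1146 and 1100 CPM in WT and 487, 533 and 525 CPM in rse1-1. Neither sum overlapped between the genotypes: alpha tubulin stood at 49.1% of its WT mean and beta tubulin at 45.2%. The exact permutation test, two-sided, gave p = 0.1 for each sum, the smallest that 3 against 3 libraries allow. The ratio of summed beta to summed alpha tubulin was 0.573, 0.546 and 0.528 in WT and 0.502, 0.522 and 0.495 in rse1-1, with the rse1-1 libraries all below the WT ones (exact permutation test, two-sided, p = 0.1, again the smallest possible). The tubulins were listed with earlier results known, so these p-values are no support for the differences.

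TUA4 (AT1G04820) had the highest level of the tubulins in both genotypes, also per kb of exon, at 471 CPM per kb in WT and 237 CPM per kb in rse1-1. It lies on chromosome 1 from 1356084 to 1358547, on the minus strand. Its level was 910, 943 and 931 CPM in WT and 451, 461 and 490 CPM in rse1-1. The groups were far apart relative to their spread, and the log2 fold change was -0.99 (SE 0.0719, adjusted p = 8.65e-09). TUA2 (AT1G50010) had 73.9, 78.0 and 77.5 CPM in WT and 28.1, 33.5 and 30.4 CPM in rse1-1, the largest fall among the alpha tubulins at -1.32 (SE 0.0807, adjusted p = 1.2e-09). TUA5 (AT5G19780) had 299, 294 and 317 CPM in WT and 126, 130 and 134 CPM in rse1-1, a log2 fold change of -1.22 (SE 0.0685). TUA6 (AT4G14960) had 321, 331 and 311 CPM in WT and 148, 160 and 164 CPM in rse1-1, a log2 fold change of -1.03 (SE 0.0699). In each of these genes all rse1-1 libraries lay below all WT libraries, and the levels of TUA3 (AT5G19770) separated in the same way (-0.94, SE 0.0705).

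The alpha tubulin genes are close copies, which limits how far single genes can be told apart. Of all stretches of 75 bases, the read length, in the TUA3 coding sequence, 31.0% also occur in another tubulin, and its closest copy, TUA5, is 97.9% identical. The same share was 14.3% for TUA4, 7.27% for TUA2 and 7.04% for TUA6. Reads from such stretches are not unique and were left out by the counting. TUB2 (AT5G62690) and TUB3 (AT5G62700), adjacent on chromosome 5, share 22.0% of these stretches, and the other beta tubulins and TUA1 (AT1G64740) share none with another tubulin.

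The beta tubulins differed more among themselves than the alpha tubulins, from -1.81 to 0.25 on the log2 scale. TUB6 (AT5G12250), on chromosome 5 from 3960938 to 3963624 on the minus strand, had 361, 335 and 320 CPM in WT and 109, 118 and 119 CPM in rse1-1. Its rse1-1 mean was 34.1% of that in WT (log2 fold change -1.55, SE 0.0744, adjusted p = 8.56e-11). TUB6 lies in the first 5 Mb and shares no stretch of read length with another tubulin. TUB7 (AT2G29550) had 82.3, 88.4 and 80.4 CPM in WT and 20.11, 22.8 and 28.9 CPM in rse1-1, the largest fall of the tubulins (-1.81, SE 0.108, adjusted p = 9.83e-10). TUB8 (AT5G23860) had 61.6, 65.1 and 69.5 CPM in WT and 20.6, 20.6 and 21.3 CPM in rse1-1 (-1.65, SE 0.0812, adjusted p = 1.15e-10). The WT and rse1-1 libraries of both genes were well separated. TUB5 (AT1G20010) and TUB3 had smaller log2 fold changes of -1.12 and -0.86.

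A pair of beta tubulins stood apart from the rest, and were singled out after their values were seen. TUB9 (AT4G20890) was called lower by a small amount, from 42.2 ± 1.85 to 35.9 ± 1.52 CPM (SD, n = 3; log2 fold change -0.23, adjusted p = 0.0145). TUB1 (AT1G75780) was called higher, from 21.7, 21.2 and 18.5 CPM in WT to 23.9, 25.5 and 23.8 CPM in rse1-1 (0.25, SE 0.0960, adjusted p = 0.0265). Both are marginal: the adjusted p-value of TUB1 was 0.142 without WT replicate 3, 0.0606 without rse1-1 replicate 2, 0.0574 with DESeq2 and 0.576 with upper quartile scaling, and that of TUB9 was 0.0549 and 0.0535 without the same libraries and 0.0868 with DESeq2.

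**Figure D2:**
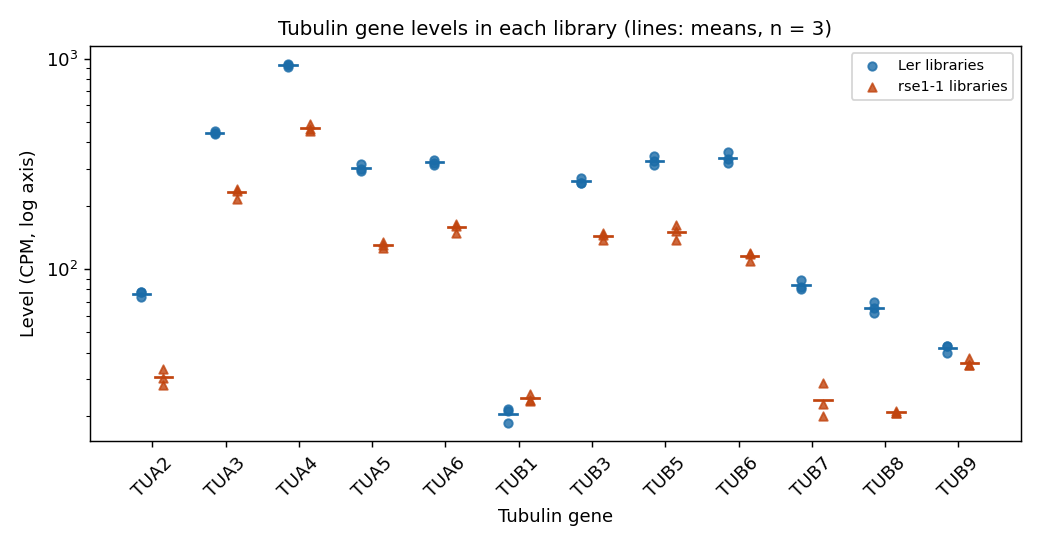
Level of the 12 measured tubulin genes in each library (CPM, log axis), with circles for WT (Ler), triangles for rse1-1 and lines at the means of 3 libraries. In 11 genes the rse1-1 triangles lie below the WT circles, from TUA4 at 928 against 467 CPM to TUB9 at 42.2 against 35.9 CPM, and TUB1 is the exception.

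The kinesins and regulators of cell division were lower in rse1-1 throughout. All 12 division kinesins and the 3 measured mitotic regulators were called lower, with a median log2 fold change of -1.73, and in all 15 the genotypes did not overlap. Among all genes tested, 38.3% were called lower, and 39.5% did not overlap with rse1-1 the lower. Not overlapping in either direction was common, at 79.5%. Summed over the 17 listed genes, the level was 250, 295 and 301 CPM in WT and 94.2, 113 and 100 CPM in rse1-1. The rse1-1 mean was thus 36.4% of the WT mean (exact permutation test, two-sided, p = 0.1, the smallest possible). The genes were listed with earlier results known, so this p-value is no support for the fall.

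KNOLLE (AT1G08560), the syntaxin that fuses vesicles at the forming cell plate, lies on chromosome 1 from 2709525 to 2711000 on the minus strand. It had 25.5, 31.8 and 31.9 CPM in WT and 6.77, 9.97 and 9.88 CPM in rse1-1. The log2 fold change was -1.77 (SE 0.144, adjusted p = 3.29e-08), and the highest rse1-1 library lay far below the lowest WT library. TPX2 (AT1G03780), which promotes spindle assembly and activates Aurora kinases, lies on chromosome 1 from 947520 to 951850 on the minus strand. Its level was 11.5, 13.9 and 15.3 CPM in WT and 3.38, 5.81 and 4.54 CPM in rse1-1 (-1.60, SE 0.181, adjusted p = 1.19e-06). AUR2 (AT2G25880), an Aurora kinase, had 1.93, 3.05 and 4.65 CPM in WT and 0.651, 1.55 and 0.877 CPM in rse1-1 (-1.73, SE 0.361, adjusted p = 4.95e-04). Its groups did not overlap, although the WT values spread over more than a factor of 2.

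Among the kinesins, POK1 (AT3G17360) and POK2 (AT3G19050), which mark the plane in which a cell will divide, were among those with the largest falls. POK1 had 12.8, 17.5 and 21.2 CPM in WT and 3.64, 5.71 and 4.38 CPM in rse1-1 (-1.94, SE 0.198, adjusted p = 3.85e-07). POK2 had 21.9, 33.0 and 31.2 CPM in WT and 5.99, 8.81 and 5.42 CPM in rse1-1, which was 23.5% of the WT mean (-2.12, SE 0.179, adjusted p = 4.76e-08). ATK1 (AT4G21270) and ATK5 (AT4G05190) are motors of the kinesin-14 family that focus the spindle. ATK1 had 10.4, 13.0 and 13.6 CPM in WT and 2.54, 2.61 and 3.67 CPM in rse1-1 (-2.07, SE 0.178, adjusted p = 5.46e-08). ATK5, on chromosome 4 from 2675064 to 2680214 on the plus strand, had 18.5, 20.3 and 22.2 CPM in WT and 4.82, 6.59 and 7.01 CPM in rse1-1 (-1.75, SE 0.146, adjusted p = 4.08e-08). All 4 kinesins had every rse1-1 library below every WT library. ATK5 is the one that lies in the first 5 Mb.

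The other division kinesins fell by similar amounts, apart from ATK2 (AT4G27180). HIK (AT1G18370), which activates the kinase cascade that expands the phragmoplast, went from 48.2 ± 3.69 to 15.9 ± 1.60 CPM (SD, n = 3; -1.61). The log2 fold changes were -1.67, -1.71 and -1.73 for PAKRP1 (AT4G14150), PAKRP1L (AT3G23670) and PAKRP2 (AT4G14330), which act in the phragmoplast, and -1.84 for RSW7 (AT2G28620), a spindle motor of the kinesin-5 family. TES (AT3G43210), a relative of HIK known from male meiosis, had a log2 fold change of -1.35 at a mean of 14.7 counts, and ATK3 (AT5G54670) one of -1.30. ATK2 had the highest WT level of the 12 per kb of exon (21.8 CPM per kb) and fell least: 64.8, 61.5 and 59.5 CPM in WT and 38.1, 39.8 and 32.9 CPM in rse1-1 (-0.75, SE 0.0843, adjusted p = 1.17e-06).

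Most division genes were lowest in the same WT library. Of the 15 measured genes, 13 were lowest in WT replicate 1 and 10 were highest in WT replicate 3. The share of all genes tested with this order was not taken, so it is not shown to be particular to the division genes. The median level, as a percentage of each gene's WT mean, was 84.7, 103 and 113 in WT replicates 1 to 3, and 24.7, 33.3 and 33.3 in those of rse1-1. For the 12 tubulins the same medians were 98.6, 102 and 99.1 in WT and 44.2, 49.7 and 48.8 in rse1-1. The spread among WT libraries was therefore smaller for the tubulins, and in both groups of genes it was small beside the distance to rse1-1.

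**Figure D3:**
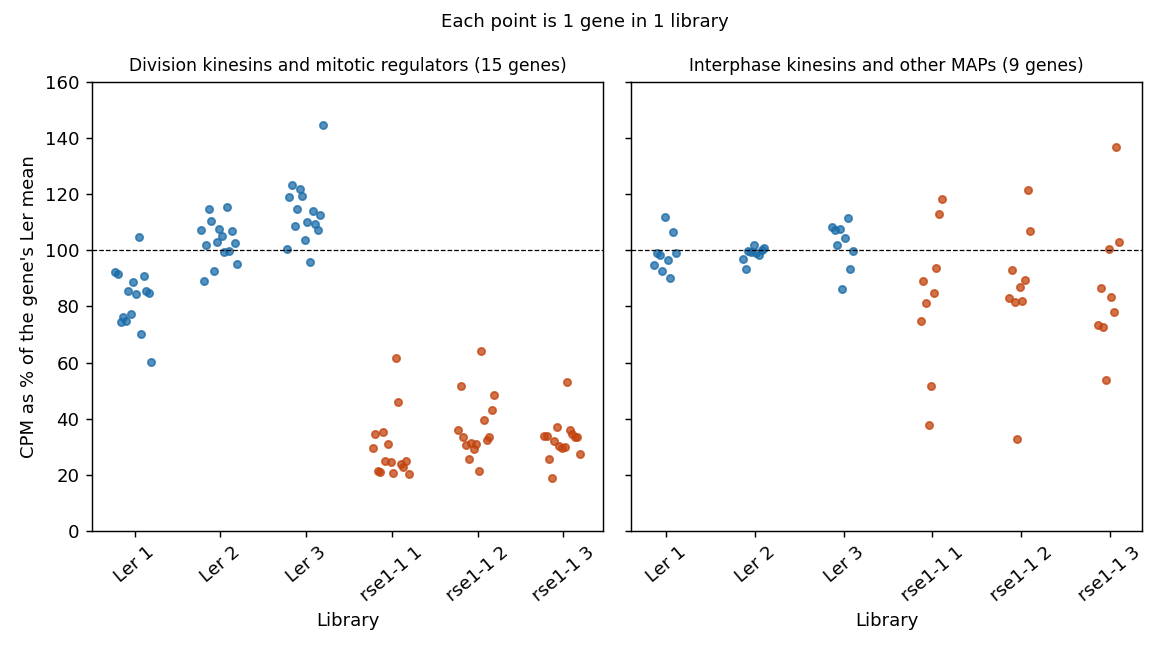
Level of each gene in each library as a percentage of its WT (Ler) mean, with 15 division kinesins and mitotic regulators on the left and 9 interphase kinesins and other MAPs on the right. On the left the rse1-1 libraries have medians of 24.7, 33.3 and 33.3%, while on the right most points lie closer to the dashed line at 100%, on both sides of it.

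The MAP65 proteins, which cross-link antiparallel microtubules, did not move as a block: 6 of 8 were called lower and 2 were not called, with log2 fold changes from -2.21 to 0.09. Among all genes tested, 38.3% were called lower. MAP65-1 (AT5G55230), the most abundant at 172 CPM per kb of exon in WT against 40.8 for MAP65-6 (AT2G01910), had 439, 496 and 481 CPM in WT and 117, 140 and 125 CPM in rse1-1. That left 27.0% of the WT mean, at a log2 fold change of -1.89 (SE 0.0837, adjusted p = 3.61e-11). MAP65-4 (AT3G60840), a protein of the spindle and phragmoplast, had 5.17, 5.12 and 5.08 CPM in WT and 0.911, 0.968 and 1.43 CPM in rse1-1. Its fall was the largest of all members, at -2.21 (SE 0.226, adjusted p = 3.91e-07). MAP65-6, on chromosome 2 from 416021 to 420661, fell less, from 136, 149 and 134 CPM in WT to 71.8, 82.8 and 70.1 CPM in rse1-1 (-0.91, SE 0.0794, adjusted p = 7.11e-08).

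MAP65-8 (AT1G27920) had 4.46, 6.01 and 5.26 CPM in WT and 1.43, 3.10 and 1.75 CPM in rse1-1 (-1.38, SE 0.253, adjusted p = 1.58e-04), and MAP65-5 (AT2G38720) had a log2 fold change of -1.28. MAP65-3 (AT5G51600), the cross-linker of the phragmoplast midzone, stood out among the division genes, with 6.80, 7.88 and 10.7 CPM in WT and 6.44, 3.87 and 7.41 CPM in rse1-1. Its groups overlapped. It was called lower (-0.50, SE 0.215, adjusted p = 0.0455), but its adjusted p-value was 0.267 without WT replicate 3 and 0.183 without rse1-1 replicate 2, each with a log2 fold change of -0.29. MAP65-2 (AT4G26760) and MAP65-7 (AT1G14690) were not called, with 30.8 ± 0.710 against 28.8 ± 0.775 CPM and 79.0 ± 1.122 against 84.1 ± 4.57 CPM (SD, n = 3, WT against rse1-1).

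Kinesins that serve cells outside division changed little. KCA1 (AT5G10470), a kinesin-like protein of chloroplast positioning, lies on chromosome 5 from 3289925 to 3297434. It had 179, 183 and 205 CPM in WT and 141, 157 and 139 CPM in rse1-1. This was 77.0% of the WT mean, without overlap (-0.38, SE 0.0766, adjusted p = 3.74e-04). ZWI (AT5G65930), a kinesin that binds calmodulin and shapes trichomes, had 58.4, 59.4 and 60.6 CPM in WT and 48.3, 48.5 and 43.1 CPM in rse1-1 (-0.35, SE 0.0751, adjusted p = 6.25e-04). FRA1 (AT5G47820), which acts in cell wall deposition, was not called (-0.16, adjusted p = 0.064). The summed level of these 3 genes was 79.8% of that in WT.

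The other MAPs moved in both directions. EB1A (AT3G47690), a plus-end binding protein, had 1.93, 2.07 and 2.24 CPM in WT and 0.781, 0.678 and 1.116 CPM in rse1-1 (-1.26, SE 0.278, adjusted p = 7.66e-04). CLASP (AT2G20190), which stabilises cortical microtubules, had 157, 161 and 170 CPM in WT and 138, 134 and 136 CPM in rse1-1, a small fall without overlap (-0.26, SE 0.0658, adjusted p = 0.00225). SPR1 (AT2G03680), a small plus-end protein needed for straight growth, rose. It lies on chromosome 2 from 1120787 to 1122055 and had 200, 187 and 175 CPM in WT and 212, 228 and 256 CPM in rse1-1 (0.31, SE 0.0819, adjusted p = 0.00324). All its rse1-1 libraries lay above all WT libraries, but upper quartile scaling shifted the median of all genes from -0.0086 to -0.20, and with it the SPR1 log2 fold change was 0.12, with an adjusted p of 0.213.

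MOR1 (AT2G35630), a microtubule polymerase, MAP70-1 (AT1G68060) and SPR2 (AT4G27060), a minus-end binding protein, were not called. Their log2 fold changes were -0.20 (SE 0.0889, adjusted p = 0.052), -0.35 (SE 0.223, adjusted p = 0.165) and 0.13 (SE 0.0882, adjusted p = 0.179). The call of MOR1 sat at the threshold: it was called lower without WT replicate 1 (adjusted p = 0.0123), without rse1-1 replicate 1 (0.0347), without the filter on low counts (0.0298) and with upper quartile scaling (8.72e-04).

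No level can be given for 9 members: TUA1, TUB2, TUB4 (AT5G44340), AUR1 (AT4G32830), AUR3 (AT2G45490), EB1B (AT5G62500), EB1C (AT5G67270), MAP70-5 (AT4G17220) and KTN1 (AT1G80350), the katanin subunit that severs microtubules. TUB2, TUB4, AUR1 and AUR3 had 0 counts in all 6 libraries. EB1B and EB1C had 1 count in 1 library each, and KTN1 had 0 to 2 counts per library. TUA1, known from pollen, was counted 5, 4 and 4 times in WT against 14, 4 and 8 times in rse1-1, and MAP70-5 was counted 6, 10 and 9 times against 7, 5 and 5 times. All 9 lie past the first 5 Mb of a chromosome, where the ribosomal protein genes were often low as well, and their genes span 1707 to 2955 bases with a median of 2482, against 3680 for the measured members. Low counts of these members therefore cannot be read as absence from the leaf. Of the measured members, 27 have a neighbouring gene on the same strand within 2000 bases, 23 of them among the 36 past the first 5 Mb. Some such pairs, picked with their values seen, changed alike. Log2 fold changes were -1.61 for HIK and -1.52 for AT1G18360, -1.94 for POK1 and AT3G17350, and -0.94 for TUA3 and -0.9 for AT5G19760. Others differed: -1.65 for TUB8 and 2.65 for AT5G23850, 0.25 for TUB1 and -2.58 for AT1G75790, and 5.6 for AT1G18382, also beside HIK. Whether counts of a member came from its neighbour was not tested.

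The matches marked in the windows above were counted in all members and in all protein-coding genes. Either AACGG or CCGTT occurs within the 250 bases before the start in 5645 of 27443 protein-coding genes (20.6%), counted on both strands. It occurs in 18 of the 53 members (34.0%), but unevenly: in 7 of 12 division kinesins and 4 of 5 mitotic regulators, together 64.7%, in 3 of 15 tubulins (TUA2, TUB7 and TUB8), in 2 of 8 MAP65 genes, in 2 of 3 interphase kinesins and in 0 of 10 other MAPs. Windows with at least 2 matches made up 3.62% of all genes and 8 of the 53 members. The 17 measured members with a match had a median log2 fold change of -1.65 and the 27 without one had -0.94. Within the division kinesins and mitotic regulators the order was the other way, -1.69 for the 10 measured genes with a match and -1.75 for the 5 without. The match did not sort the members cleanly. POK1, ATK1, ATK5 and PAKRP2, as well as MAP65-1 and TUB6, fell without one, and FRA1, with 1, was not called. Over all genes tested, the 3400 with a match had a median of -0.037, with 38.8% called lower, and the 12187 without one had 0.0036, with 38.5% called lower. These are descriptions of letters in a window, with no test, and not of binding.

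**Figure D4:**
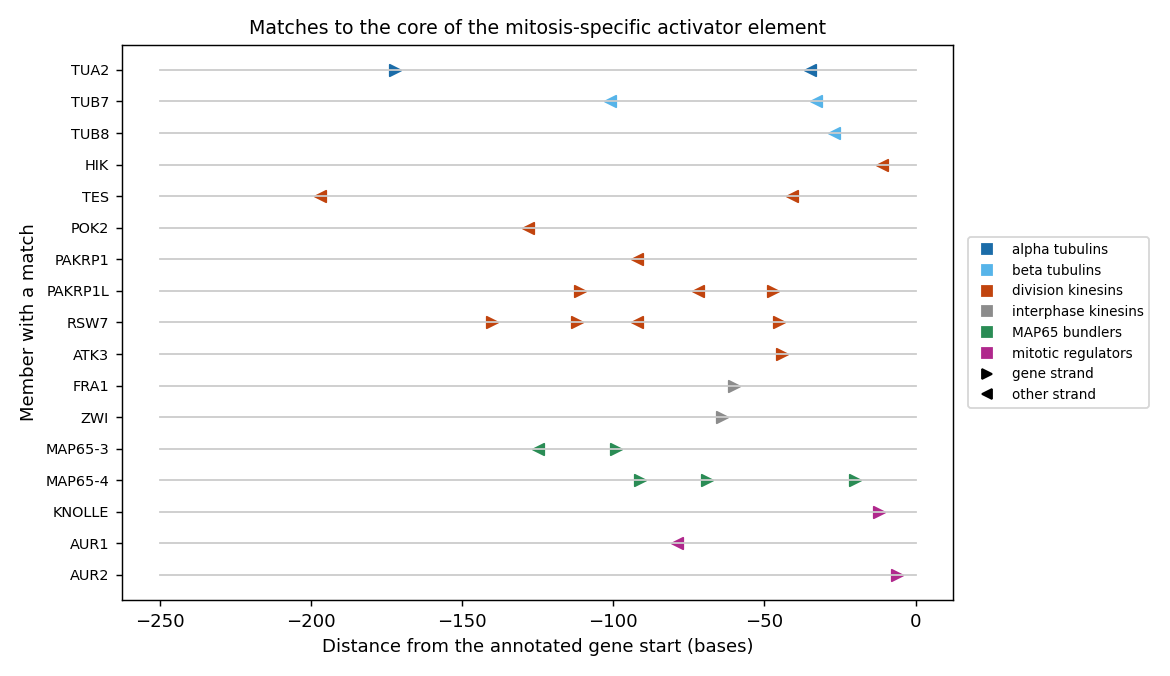
Position of each AACGG (pointing right) or CCGTT (pointing left) in the 250 bases before the annotated start of 17 of the 18 members that hold one, coloured by role. RSW7 has 4 matches, PAKRP1L and MAP65-4 have 3 each, and the matches shown for KNOLLE, HIK and AUR2 lie within the last 12 bases. Of the 250 bases, 187 for RSW7, 240 for POK2 and 245 for ZWI lie in annotated exons of another gene. The other windows in the figure overlap no such exon.

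Other genes of the same machinery were lower in part. Of 14 genes of microtubule nucleation and the augmin complex, all measured, 10 were called lower and 0 higher, with a median log2 fold change of -0.62. The share called lower was 71.4%, against 38.3% of all genes tested. TUBG2, a gamma tubulin that seeds microtubules, went from 34.8 ± 2.56 to 14.3 ± 1.47 CPM (SD, n = 3; -1.29, adjusted p = 2.34e-08) and AUG8, of the augmin complex, from 30.5 ± 3.20 to 14.8 ± 0.362 CPM (-1.04, adjusted p = 2.23e-07). TUBG1, the other gamma tubulin, was not called (0.17, adjusted p = 0.231). Of the tubulin folding cofactors, 3 of 5 were measured: TFCD was called lower (-0.39, adjusted p = 6.49e-04), and TFCE (-0.29, adjusted p = 0.172) and TFCB (0.01, adjusted p = 0.956) were not called.

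Of 13 genes of the phragmoplast and division plane, 11 were measured, with 7 lower (63.6%) and 2 higher and a median of -0.45. Among all genes tested, 77.0% were called, 38.3% lower and 38.8% higher. RUK, a microtubule-associated protein of the phragmoplast, fell from 54.8 ± 5.85 to 13.8 ± 2.099 CPM (SD, n = 3; -2.01, adjusted p = 5.69e-10). SNAP33 also fell, from 18.4 ± 0.539 to 8.10 ± 0.925 CPM (-1.20, adjusted p = 3.38e-07). KEULE, a partner of KNOLLE in membrane fusion, rose from 122 ± 5.002 to 301 ± 11.3 CPM (246% of WT, adjusted p = 2.84e-10). KEULE and KNOLLE thus moved in opposite directions, and both are among the genes of the first 5 Mb. The other that rose was MPK4 (0.73, adjusted p = 1.25e-07), a kinase that also acts in defence signalling.

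Markers of dividing cells moved with the division genes. Of 9 genes of the mitotic program, 7 were measured and 6 were called lower, with a median log2 fold change of -1.47. The share of measured genes called lower was 85.7%, against 38.3% of all genes tested. MYB3R4, an activator that binds the element described above, fell from 15.8 ± 2.07 to 4.60 ± 1.16 CPM (SD, n = 3; -1.77, adjusted p = 1.82e-07), and CYCB1;2, a mitotic cyclin, from 18.4 ± 2.48 to 5.76 ± 1.28 CPM (-1.68, adjusted p = 1.91e-07). MYB3R4 and CYCB1;2 both belong to the first 5 Mb. CDKB1;1 was not called (0.09, adjusted p = 0.336), and CYCB1;1 and CDKB2;1 were not measured. The list summed to 168 to 205 CPM in the WT libraries and 128 to 135 CPM in the rse1-1 libraries. The part of a changed number of dividing cells in the falls was not tested.

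Markers of other cells were called as well, as were 77.0% of all genes tested (38.3% lower and 38.8% higher). Of the 6 measured mesophyll markers, 5 were lower and 1 was higher: PSBO2 rose from 4.70 ± 0.272 to 20.097 ± 1.24 CPM (SD, n = 3), 428% of its WT mean (adjusted p = 1.15e-09). The list summed to 5075 to 5311 CPM in WT and 2788 to 3249 CPM in rse1-1, with PSAD2 at -0.95 and RCA at -0.92 on the log2 scale. Of 8 stomatal lineage and guard cell markers, 4 were measured, with 3 lower and 1 higher. MYB60 was lower (-0.79, adjusted p = 1.54e-06) and KAT1 higher (1.04, adjusted p = 2.24e-08), and their list summed to 163 to 166 CPM in WT and 186 to 198 CPM in rse1-1, with SPCH and EPF2 at 0 counts. None of 4 trichome markers and none of 6 meristem and flower markers was measured: they summed to at most 0.172 and 0.0985 CPM in any library, and GL1, TRY, WUS, CLV3, AG and AP1 had 0 counts. Of 5 root markers, 4 were measured, summing to 16.2 to 18.4 CPM in WT and 23.8 to 28.2 CPM in rse1-1, with PHT1;4 (2.88, adjusted p = 3.8e-08) and PYK10 (2.18, adjusted p = 0.0013) higher and NRT2.1 (-1.36, adjusted p = 1.03e-04) lower. The part of any of these in the members' values was not tested.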

How the data were processed

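Strand-specific poly(A) libraries from leaves were sequenced as single reads of 75 bases. The authors trimmed the reads (Trimmomatic 0.32.3), aligned them with TopHat 2.0.9 to a Ler-0 genome rebuilt from Col-0, removed PCR duplicates (Picard 1.119) and counted unique reads per gene (HTSeq 0.6.1). They deposited these whole counts without normalization. The strand setting and annotation version are not given in the sources used here. Entries that name no gene, 47.0% to 48.7% of a library, were left out.

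All 6 libraries entered 1 fit with genotype alone: edgeR 4.0.16 in R 4.3.3, TMM scaling (factors 0.991 to 1.01), filterByExpr with a minimum count of 10, and the quasi-likelihood test. SE is the size of the log2 fold change divided by the square root of F. Replicates differed by more than sampling noise. Gene positions and promoter windows were taken from RefSeq TAIR10.1, with the window of 1 member not reported here, and the tests were checked on simulated counts. The alternatives were DESeq2 1.42.0, limma-voom (limma 3.58.1), RLE, upper quartile or library-size scaling, other filters and thresholds, a replicate block and leaving out each library.

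The members and lists were chosen with earlier results of these data known. Library values are given for measured members in the first 5 Mb and for the 3 called members of each role with the largest changes. TUB1, TUB9, ATK2, MAP65-3, TUA1 and MAP70-5 are named beyond that rule, with their values known. The same holds for TUBG1, MPK4, SNAP33, TFCB, CDKB1;1, RBCS1A, LHCB1.2 and PYK10 in the other lists. Otherwise the 2 genes of each such list with the smallest adjusted p-values were named, plus RCA as a defining leaf marker.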

Additional observations from a re-analysis of the deposited data

How the results depend on the processing

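The direction of the division kinesins, mitotic regulators, tubulins other than TUB1, and MAP65-1 was the same under every alternative run. Upper quartile scaling lowered the medians, to -1.22 (alpha tubulins), -1.31 (beta tubulins), -1.91 (division kinesins), -0.54 (interphase kinesins), -1.28 (MAP65) and -0.42 (other MAPs), and the summed alpha and beta tubulins to -1.22 and -1.34. It also moved all genes, with 5112 higher and 7633 lower against 6314 and 6234, left 0 members called higher, and turned MAP65-7 (-0.10) and SPR2 (-0.06) negative without a call. The count of members called higher was 1 with DESeq2, 1 at an adjusted p under 0.01, 0 with a log2 fold change of at least 1, and 1 to 2 with each library left out. With the members of the first 5 Mb alone, 8 were called, 7 lower and 1 higher, and the medians were -1.55 for beta tubulins and -0.91 for MAP65, while that of the other MAPs became 0.31 because SPR1 was the one gene left. The median of the other MAPs, -0.23, was -0.18 with at least 10 counts in every library, -0.20 with DESeq2 and -0.27 to -0.16 with each library left out. Of the alternatives for single members, 587 kept direction and call, 15 lost the call, 10 gained it and 2 changed sign. Libraries of the same number did not deviate together (correlations 0.0419, 0.0803 and -0.0828). With the replicate block, 12546 genes were called against 12548, and the call of 1 member changed: MOR1, at -0.20, had an adjusted p of 0.049 with edgeR. At these depths, members under about 10 counts per library cannot be compared.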
